A study of Arabidopsis thaliana with 4 samples.

Results

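Class III peroxidases are secreted haem enzymes of plants that use hydrogen peroxide to oxidize phenolic substrates in the cell wall. By joining phenolics, lignin precursors and wall proteins such as extensins they can stiffen the wall, and through the oxidants they make or consume they can also loosen it. Many members of the family are expressed in roots, and several are known from root hairs, from the lignified Casparian strip of the endodermis or from the oxidative burst of defence. Here 59 peroxidase loci of Arabidopsis thaliana, listed by locus tag, were followed in seedlings that overexpress the peptide hormone AtRALF1, a secreted peptide known for making the growth medium alkaline and slowing root growth. Of the 59, 41 had a probe set named for that gene alone and are the measured members. A further 7 were named only on probe sets that they share with another gene, and 11 were not named in the probe table used here and were not analysed. Of the 4 root hair loci on the list, AT1G30870 and AT4G26010 were measured, and AT5G67400 (RHS19) and AT5G22410 (RHS18) were not analysed here.

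The data are 4 Affymetrix arrays, 1 per sample, of RNA from whole 1-week-old seedlings grown upright on plates under a 16 h day at 24 °C after 48 h of cold. The control samples (n = 2) mixed equal parts of RNA from wild-type plants and from wild-type plants carrying the empty pART27 vector. The 35S:AtRALF1 samples (n = 2) mixed, in the same way, RNA of a pair of lines, 35S:AtRALF1-1-I and 35S:AtRALF1-1-II, in which the cauliflower mosaic virus 35S promoter drives the peptide gene in nearly all tissues. Both groups come as a first and a second repeat, and no label says whether these are separate plantings, so the spread between them may be technical. Because roots and shoots were extracted together, a transcript that is higher in each cell cannot be told from more cells of the type that holds it. Values are signal intensities in arbitrary units, which do not rank the transcripts of different probe sets. They were compared as log2(signal + 16), an offset that understates the changes of dim probe sets. The AtRALF1 gene itself was not named in the probe table, and its overexpression could not be checked from these signals. The median signal lay between 42 and 50.5 in the 4 arrays. No probe set of the 22746 tested passed an adjusted p of 0.05 in either direction (limma, 0.0% higher and 0.0% lower), and 458 were higher and 522 lower at an unadjusted p under 0.05. Both tissues were present: the root gene PYK10 had control signals of 7079 and 6100 and lower 35S:AtRALF1 signals of 5715 and 4085 (log2 fold change -0.44, limma, adjusted p = 0.987), and the leaf gene RCA, which encodes Rubisco activase, had signals of 8572 to 9926. Each was the 1 gene measured of its list, of 9 root and 8 leaf markers.

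More of the peroxidases stood higher in 35S:AtRALF1 than lower, and none passed the test on its own. The median log2 fold change of the 41 measured members was 0.28 (interquartile range, -0.13 to 0.54), against -0.04 for all probe sets. It was 0.15 without control replicate 2. A positive log2 fold change was seen in 26 of the 41 (63.4%), against 43.9% of all probe sets. With quantile normalization it was seen in 25 of the 41, against 49.0% of all probe sets. In 15 members (36.6%) both 35S:AtRALF1 arrays were above both control arrays, an order held by 13.2% of all probe sets, and in 4 (9.76%) both were below, against 18.0%. Quantile normalization gave 15 members above and 3 below, against 15.8% and 15.3% of all probe sets. None passed when p-values were adjusted over all probe sets, the lowest adjusted p being 0.987 (limma). At an unadjusted p under 0.05, 5 members were higher, 12.2% against 2.01% of all probe sets, and 0 were lower, against 2.29%. With control replicate 1 left out these became 0 and 0 of the 41, where 1.39% of all probe sets were higher. The smallest p that exact permutation allows for 2 samples against 2 is 0.33, so every test of a gene here leans on the spread that limma borrows from other probe sets.

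**Figure D1:**
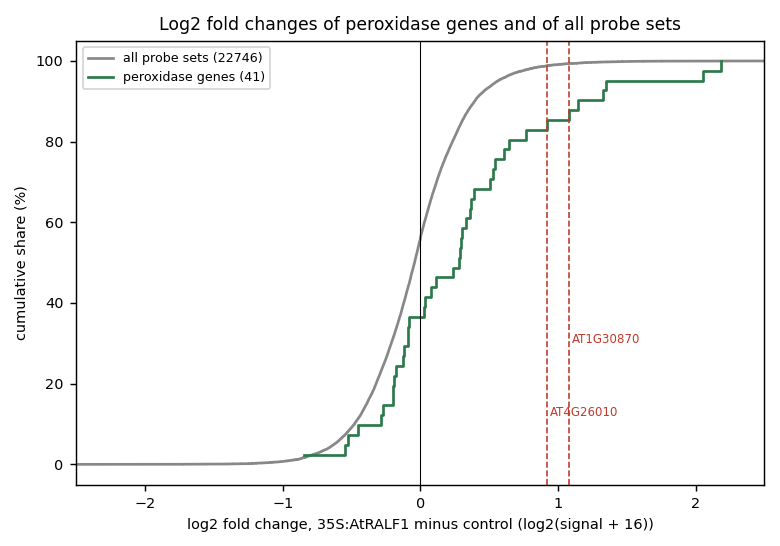
Cumulative share (%) of log2 fold changes between 35S:AtRALF1 and control on the log2(signal + 16) scale, for the 41 measured peroxidase genes and for all 22746 probe sets, with the 2 root hair members marked by dashed lines. The x axis leaves out the most extreme probe sets. The curve of the peroxidases lies mostly to the right of that of all probe sets, with medians of 0.28 and -0.04, and the root hair members stand at 0.92 and 1.08.

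The 2 measured root hair peroxidases were both about 2-fold higher in 35S:AtRALF1, with a spread within each group that was small beside the difference, though neither passed the adjusted threshold. AT1G30870 had control signals of 125.5 and 144.3 and 35S:AtRALF1 signals of 287.4 and 319.5. The lowest 35S:AtRALF1 array was thus well above the highest control array. The means were 134.9 ± 13.3 and 303.4 ± 22.7 (SD, n = 2 each), a ratio of 2.25. Its log2 fold change was 1.08 (standard error 0.22), with the smallest p of all members (limma, unadjusted p = 0.00527, adjusted p = 0.987). AT4G26010 had control signals of 181.1 and 225.2 and 35S:AtRALF1 signals of 378.8 and 417.4, again without overlap. Its log2 fold change was 0.92 (standard error 0.23), the second smallest p (limma, unadjusted p = 0.0111, adjusted p = 0.987).

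Set against the other members, the root hair pair had the larger median, and nearly the same difference in both repeats. Their median log2 fold change was 1.00, against 0.24 for the other 39, a difference of 0.76. The difference was 0.74 in the first repeat and 0.80 in the second. These medians are descriptions, since the members share the same arrays. AT1G30870 was 2.14-fold higher in the first repeat and 2.09-fold in the second, and AT4G26010 2.00-fold and 1.80-fold, on the scale with the offset. Other genes of root hair cells had positive log2 fold changes too. Of a list of 8 root hair markers 3 were measured. EXPA7 and EXPA18, expansins that loosen the wall of the growing hair, had log2 fold changes of 0.48 and 0.51. EXPA7 had control signals of 62.2 and 107.1 and 35S:AtRALF1 signals of 111.3 and 130.7, and EXPA18 had 135.7 and 99.6 against 156.8 and 190.8. The other marker, AT5G19800, is a hydroxyproline-rich glycoprotein gene and had 1.17. It was chosen in the study with the help of these arrays, so its value is not independent evidence. None of the 3 passed the test (limma, adjusted p = 0.987 for each). Whether more hair cells or more transcript per hair cell accompanies these values was not tested.

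**Figure D2:**
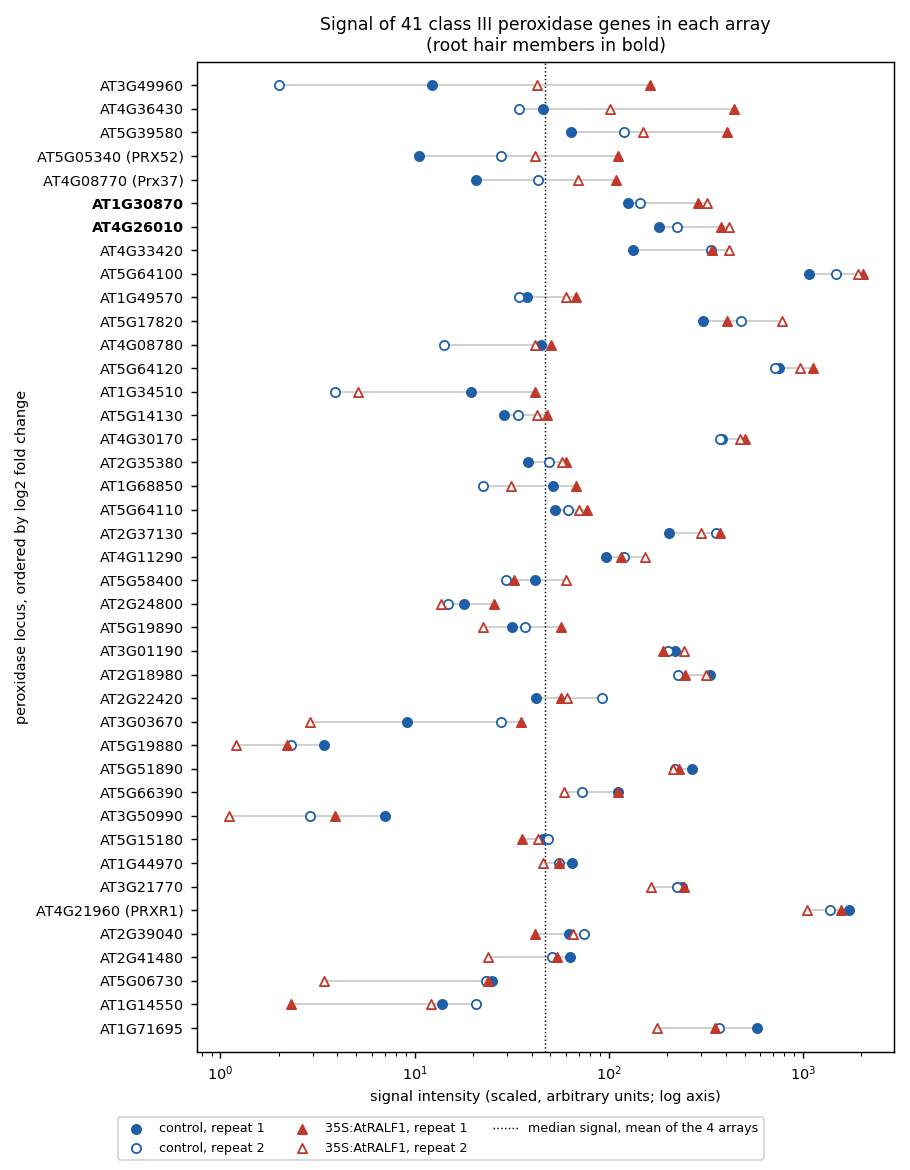
Signal intensity (log axis, arbitrary units) of the 41 measured peroxidase genes, ordered from the highest to the lowest log2 fold change, with the control arrays as circles and the 35S:AtRALF1 arrays as triangles, filled for the first repeat and open for the second. The root hair members in bold have both triangles to the right of both circles, and the 5 genes above them have the filled triangle to the right of the open one, most clearly in AT4G36430 (442.9 and 101.2) and least in Prx37 (109.2 and 69.0).

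The 5 members with larger log2 fold changes than the root hair pair, none of them on the root hair list, had their highest signal on the first 35S:AtRALF1 array. AT3G49960 had control signals of 12.3 and 2.00 and 35S:AtRALF1 signals of 162.9 and 42.7. Both control values lie under the 40th percentile (34.6 and 32.3 on these arrays), taken here as the range of background, so no ratio is given. Its log2 fold change was 2.18 (standard error 0.62, limma, unadjusted p = 0.0194, adjusted p = 0.987), and 3.74 with an offset of 1 or 1.13 with 64 in place of 16. It was 1.38 without 35S:AtRALF1 replicate 1. AT4G36430 had control signals of 46.0 and 34.4 and 35S:AtRALF1 signals of 442.9 and 101.2. Here the first 35S:AtRALF1 array was far above the second, and the second was still above both controls. The log2 fold change was 2.05 (standard error 0.69, limma, unadjusted p = 0.0342, adjusted p = 0.987), and 1.07 without 35S:AtRALF1 replicate 1.

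AT4G08770 (Prx37), a peroxidase whose overexpression is known to dwarf Arabidopsis, had control signals of 20.7 and 43.4 and 35S:AtRALF1 signals of 109.2 and 69.0. The groups did not overlap, and 35S:AtRALF1 was higher in both repeats. The second array was the higher of the control pair but the lower of the 35S:AtRALF1 pair. Its log2 fold change was 1.14 (standard error 0.39, limma, unadjusted p = 0.0354, adjusted p = 0.987), and 0.67 with an offset of 64. AT5G39580 had control signals of 63.5 and 119.2 and 35S:AtRALF1 signals of 404.6 and 150.3. On the scale with the offset it was 5.29-fold higher in the first repeat but 1.23-fold in the second, and its log2 fold change of 1.35 (standard error 0.55) was 0.68 without 35S:AtRALF1 replicate 1. AT5G05340 (PRX52), known for its part in stem lignin, had control signals of 10.5 and 27.9 and 35S:AtRALF1 signals of 111.1 and 41.7. Both control values lie under the 40th percentile, so no ratio is given here either. The log2 fold change was 1.33 (standard error 0.51), 0.76 without 35S:AtRALF1 replicate 1 and 0.72 with an offset of 64. Why the first 35S:AtRALF1 array stood apart for these 5 genes was not tested.

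**Figure D3:**
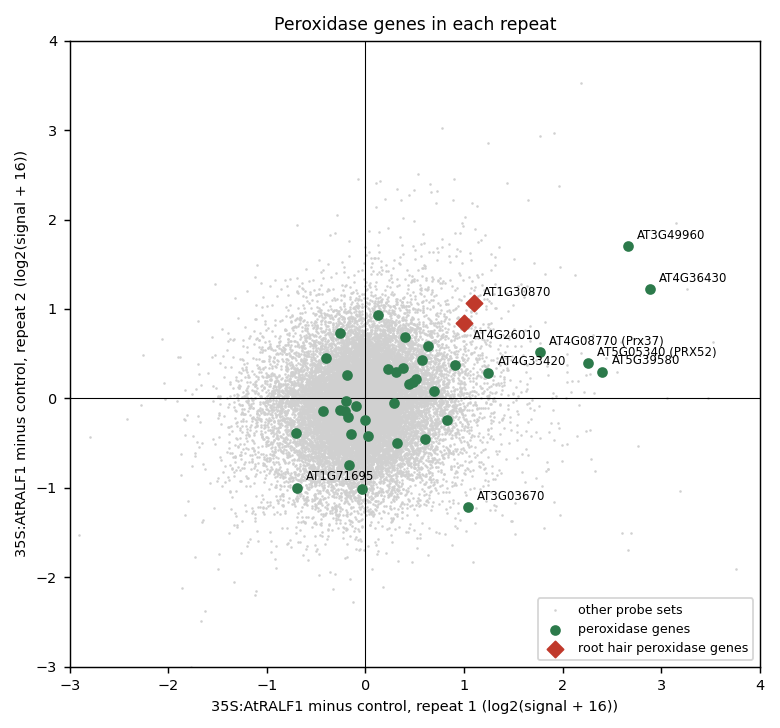
Difference between 35S:AtRALF1 and control within the first repeat (x axis) and within the second (y axis), both on the log2(signal + 16) scale, for 41 peroxidase genes, with the root hair pair as diamonds and all probe sets in grey. 4 probe sets lie outside the axes. The root hair members lie near equal values of about 1 in both repeats. AT4G36430, AT3G49960, AT5G39580, PRX52 and Prx37 lie further to the right, at 2.89, 2.66, 2.40, 2.26 and 1.77 in the first repeat. Of the peroxidases, AT3G49960 and AT4G36430 are also the highest in the second repeat, at 1.71 and 1.22.

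Compared by repeat, the family median was 0.32 in the first and 0.18 in the second, against -0.03 and -0.04 for all probe sets. In the first repeat 26 members had a positive difference (63.4%, against 45.2% of all probe sets) and in the second 23 (56.1%, against 44.4%). The repeats share no array, and 20 members were higher in both (48.8%, against 22.4% of all probe sets). Another 12 were lower in both (29.3%, against 31.5%), and 9 had opposite signs (22.0%, against 44.1%). A difference of at least 2-fold in both repeats was seen upwards in 3 members, AT3G49960, AT4G36430 and AT1G30870 (7.32%, against 0.299% of all probe sets), and downwards in 0 (against 0.242%). With an offset of 64 the 3 became 0, and the share of all probe sets at that offset was not computed. Across the 41 members the differences of the 2 repeats had a Pearson r of 0.54 and a Spearman rho of 0.45, against 0.15 and 0.13 across all probe sets. These were 0.70 and 0.65 in the 28 members above the median signal, but -0.23 and -0.05 in the 13 below it. Genes share arrays and are not independent, so these are descriptions. Opposite signs were most marked in AT3G03670, with signals of 9.10 and 27.8 in the control and of 35.5 and 2.90 in 35S:AtRALF1, which are mostly under the 40th percentile.

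A trio of neighbouring genes, AT5G64100, AT5G64110 and AT5G64120, had both 35S:AtRALF1 arrays above both controls, though none passed the test. AT5G64100 had control signals of 1071 and 1481 and 35S:AtRALF1 signals of 2030 and 1924, a log2 fold change of 0.64 (standard error 0.27, limma, adjusted p = 0.987), and 0.41 without control replicate 1. AT5G64120 (PRX71), a peroxidase known to strengthen the wall and to limit cell growth, had control signals of 751.2 and 714.1 and 35S:AtRALF1 signals of 1128 and 967.2. The control arrays were close to each other, and both 35S:AtRALF1 arrays lay above them. The means were 732.6 ± 26.2 and 1047 ± 113 (SD, n = 2 each), a ratio of 1.43. The log2 fold change was 0.50 (standard error 0.22, limma, adjusted p = 0.987). AT5G64110, between them, had 52.7 and 61.7 on the control arrays against 77.2 and 70.6 on the 35S:AtRALF1 arrays, a log2 fold change of 0.30. Prx37 stood beside AT4G08780, whose control signals of 44.9 and 14.2 and 35S:AtRALF1 signals of 50.3 and 41.5 overlapped. AT5G19880 and AT5G19890, also neighbours, had log2 fold changes of -0.09 and 0.07. AT1G14550 and AT5G06730, whose listed neighbours were not named in the probe table, had -0.55 and -0.52, from signals under the 40th percentile. Of 9 runs of adjacent listed loci, holding 20 loci, 9 loci were measured, since the copies of several runs share a probe set or are not named.

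A further 5 members had both 35S:AtRALF1 arrays above both controls, with log2 fold changes of 0.33 to 0.77. AT4G30170 had control signals of 383.9 and 372.0 and 35S:AtRALF1 signals of 504.1 and 475.5, a narrow spread in each group and a log2 fold change of 0.36. AT1G49570 had 38.0 and 34.6 on the control arrays against 67.8 and 60.1 on the 35S:AtRALF1 arrays, a difference almost equal in both repeats (0.63 and 0.59) and a log2 fold change of 0.61. AT4G33420 had 133.4 and 337.6 on the control arrays against 338.6 and 415.3 on the 35S:AtRALF1 arrays. Its second control array all but reached the first 35S:AtRALF1 array, and its log2 fold change of 0.77 was 0.15 without control replicate 1. AT2G35380 and AT5G14130 had log2 fold changes of 0.33 and 0.37, from signals of 28.9 to 60.2, around the median of the arrays.

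Lower signals in 35S:AtRALF1 were fewer. AT1G71695 had control signals of 581.0 and 368.3 and 35S:AtRALF1 signals of 353.2 and 176.5. Both 35S:AtRALF1 arrays were below both controls, though the second control array came close to the first 35S:AtRALF1 array, and in each group the second array was the lower. The means were 474.6 ± 150 and 264.9 ± 125 (SD, n = 2 each), a ratio of 0.558. The log2 fold change of -0.85 (standard error 0.42, limma, adjusted p = 0.987) was the lowest of the family, and leaving out the second 35S:AtRALF1 array (replicate 2) gave -0.38, the first control array -0.53 and the first 35S:AtRALF1 array -1.32. AT4G21960 (PRXR1) had control signals of 1729 and 1385 and 35S:AtRALF1 signals of 1564 and 1049, which overlapped, with a log2 fold change of -0.27 (standard error 0.30). This turned to 0.02 without 35S:AtRALF1 replicate 2. AT2G41480 (PRX25), a peroxidase of lignification, had 62.8 and 50.7 on the control arrays against 54.0 and 23.9 on the 35S:AtRALF1 arrays, a log2 fold change of -0.46 (standard error 0.38) that was -0.05 without 35S:AtRALF1 replicate 2 and -0.86 without its replicate 1.

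AT5G15180, at 46.0 and 48.4 in the control against 35.7 and 43.0, had a log2 fold change of -0.19. The other members with the smallest p on the lower side were dim. AT1G14550 had control signals of 13.8 and 20.8 and 35S:AtRALF1 signals of 2.30 and 12.1, AT5G06730 had 24.9 and 23.2 against 24.0 and 3.40, and AT3G50990 (PER36), known from the seed coat, had 7.0 and 2.90 against 3.90 and 1.10. All of these signals are under the 40th percentile of their arrays, and the log2 fold changes of -0.55, -0.52 and -0.18 cannot be told from background. AT5G19880 (1.2 to 3.4) and AT2G24800 (13.6 to 25.5) also lay under that percentile on every array, which makes 5 such members, while 25 lay above it on all 4.

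**Figure D4:**
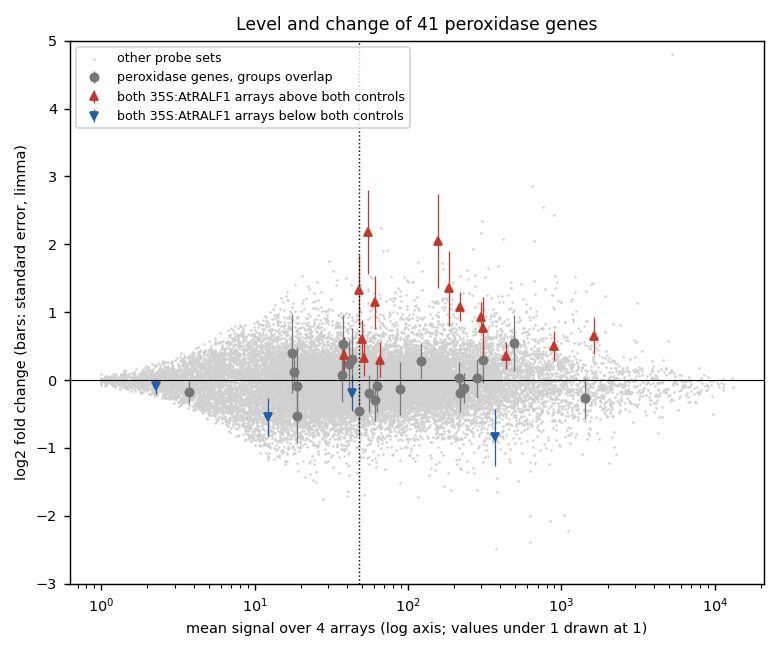
Log2 fold change between 35S:AtRALF1 and control (y axis, bars for the standard error from limma) against the mean signal of 4 arrays (log axis) for 41 peroxidase genes, with other probe sets in grey and the dotted line at the median probe set. Upward triangles mark the 15 genes with both 35S:AtRALF1 arrays above both controls, which reach 2.18, and downward triangles the 4 with both below, which reach -0.85.

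Grouped by known role, the lignin and Casparian strip members had log2 fold changes of both signs, and none passed the test. Of 9 peroxidases linked to lignin of stems or vessels, 6 were measured, and their median log2 fold change was -0.10. This median had no stable sign, since leaving out an array gave -0.11 for the first 35S:AtRALF1 array (replicate 1), 0.10 for the second, 0.08 for the first control array and 0.06 for the second. PRX52 and PRX71 were at 1.33 and 0.50, whereas AT2G22420, AT5G51890, AT5G66390 (PRX72) and PRX25 were between -0.46 and -0.08. PRX72 had control signals of 111.9 and 72.7 and 35S:AtRALF1 signals of 111.5 and 58.7, so the repeats differed more than the groups. Of 5 peroxidases of the Casparian strip 3 were measured, at -0.20 (AT1G44970), -0.13 (PRX72) and 0.28 (AT4G11290), and their median of -0.13 turned to 0.14 when the first control array was left out and to 0.10 when the second 35S:AtRALF1 array was. Of 4 peroxidases of the oxidative burst only PRX71 was measured. AT4G11290 and AT5G17820, which the root growth regulator UPB1 is known to repress, were at 0.28 and 0.54. Each array moved both values: they were at 0.10 and 0.09 with the second 35S:AtRALF1 array left out, 0.14 and 0.23 with the first control array, 0.46 and 1.00 with the first 35S:AtRALF1 array, and 0.41 and 0.85 with the second control array. AT5G17820 had control signals of 304.4 and 477.1 and 35S:AtRALF1 signals of 406.1 and 776.7, higher within each repeat but overlapping between them. UPB1 itself had control signals of 32.5 and 38.0 and 35S:AtRALF1 signals of 53.4 and 33.5.

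The remaining members showed no separation of the groups. AT3G01190, AT2G18980, AT2G37130 and AT3G21770 had signals between 164.3 and 374.9, and log2 fold changes of 0.04, 0.02, 0.29 and -0.20. The groups of AT5G51890 overlapped, at 267.7 and 218.7 on the control arrays against 230.6 and 213.4 on the 35S:AtRALF1 arrays. AT1G34510 and AT1G68850 were higher in the first array of each group than in the second. AT1G34510 had control signals of 19.5 and 3.90 and 35S:AtRALF1 signals of 41.6 and 5.10, and AT1G68850 had 51.3 and 22.5 against 67.5 and 31.4. AT2G39040, AT5G58400 and AT2G22420 had log2 fold changes between -0.29 and 0.24.

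Genes that supply the peroxidases with oxidant or substrate could be followed only in part. Of 10 NADPH oxidase genes, whose products make the superoxide from which apoplastic hydrogen peroxide forms, 3 were measured, AT1G19230, AT4G25090 and AT4G11230. All 3 were dim, with signals of 5.10 to 25.8. Of 16 genes of monolignol synthesis HCT was measured, at 1362 and 2090 on the control arrays against 1060 and 2677 on the 35S:AtRALF1 arrays, and of 6 laccases none. Of 7 regulators of root hair or root growth, UPB1 was the 1 measured. Over these lists 0 genes passed the test in either direction (limma, adjusted over all probe sets), and the lowest unadjusted p among them was 0.194 (limma).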

How the data were processed

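Per the labels and the table itself, the deposited file holds 1 linear intensity for each probe set on each array. The authors brought the arrays to a common level: with 2% of values trimmed at either end, every array averages 125.0. Which program and background correction made these intensities is not stated in the sources read, and detection calls were not analysed. After 64 control probe sets were left out, values under 1 were set to 1 and the log2 of the value plus 16 was used. The groups were set against each other over 22746 probe sets with limma 3.58.1 in R 4.3.3 (lmFit, eBayes with an intensity trend, two-sided, Benjamini-Hochberg adjustment, threshold 0.05). The number of arrays limits the precision. In a simulation of control against 35S:AtRALF1 over 22746 probe sets, log2 changes of 1, 2, 3 and 4 were given to 50 probe sets each. The fit recovered 2%, 76%, 96% and 100% of them. With many large changes the adjustment is milder for the smaller ones, so these are not shares for a lone change. The simulated noise was independent between arrays and drawn from the spread that limma partly borrows, so these shares may be too high for the real arrays. In the data no probe set passed, although log2 fold changes reached 4.81.

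Genes were named from the platform's probe table and the RefSeq gene table of TAIR10.1: 13513 probe sets have 1 gene, 503 several and 8730 none. The peroxidase loci, gene lists and rules were chosen with earlier results of these data known. A rule picked the measured root hair members, the 5 with the smallest p in each direction and the 3 with the highest mean signal. Their standard errors are given, except for AT1G14550, AT5G06730 and AT3G50990, and each had an adjusted p of 0.987 (limma). Other members are named with their values. AT5G39580, PRX52 and further members described at length were chosen after their values were seen. No member had more than 1 probe set of its own, and none of these carries the design's mark for shared probes. Alternatives were other normalizations, offsets of 1 and 64, the brightest 60% of probe sets, no trend, a term for the repeat, and each array left out.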

Additional observations from a re-analysis of the deposited data

How the results depend on the processing

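The family median of 0.28 was 0.17 with an offset of 64 and 0.15 to 0.36 with 1 array left out, the lowest without control replicate 2. The difference between root hair and other members (0.76) was 0.72 with quantile normalization and 0.72 with cyclic loess, 0.70 with an offset of 64, 0.71 among the brightest 60% of probe sets and among members above the median signal, and 0.58 to 1.05 with 1 array left out. Members with both 35S:AtRALF1 arrays below both controls (4) numbered 2 with cyclic loess, where 15.3% of all probe sets were below. They numbered 2 among the 60%, where 16.8% of the probe sets were below. Above the median signal they numbered 1 of 28 (3.57%, against 16.0% of all probe sets above it). With 1 array left out, fewer arrays make separation easier: 19 to 23 members were above (25.9% to 31.6% of all probe sets) and 6 to 15 below (32.5% to 40.5% of all probe sets). Members lower in both repeats (12) numbered 7 above the median signal, and those 2-fold higher in both (3) numbered 0 with an offset of 64. At an unadjusted p under 0.05, 0 to 7 members were higher and 0 to 2 lower with 1 array left out, where 1.39% to 3.36% of all probe sets were higher and 2.37% to 4.22% lower. The 1 probe set called higher among the 60% (fewer tested), and the 1 with the replicate block, are not peroxidase members.

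Both groups use the numbers 1 and 2, with no label on what a number shares, and deviations from the group means correlated at 0.39 between same-numbered arrays. With the replicate block 11 members were higher and 1 lower at an unadjusted p under 0.05 (3.23% and 4.02% of all probe sets), none past the adjusted threshold. Of 444 values of the 41 members under the alternatives, 22 had another sign, in 14 members, and none passed the adjusted threshold (lowest adjusted p = 0.632, limma). AT2G18980 (0.02) was -0.0054 with quantile normalization and -0.0062 with cyclic loess. With 1 array left out the log2 fold changes ranged from -0.23 to 0.28 for AT2G18980, -0.083 to 0.67 for AT2G37130, -0.25 to 0.019 for AT5G51890, -0.51 to 0.26 for PRX72, -0.33 to 1.12 for AT1G34510, -0.10 to 0.71 for AT1G68850, -0.53 to 0.36 for AT2G22420, -0.13 to 0.20 for AT3G01190, -0.81 to 0.64 for AT3G03670, -0.13 to 0.36 for AT2G24800, -0.38 to 0.53 for AT5G19890, -0.46 to 0.065 for AT3G21770, -0.55 to 0.015 for PRXR1 and -0.084 to 0.57 for AT5G58400. The median of the Casparian strip group ranged from -0.30 to 0.14, of the lignin group from -0.11 to 0.10 and of the UPB1 targets from 0.092 to 0.73. For all of these the cause was not tested. No member had a second probe set, so that alternative could not be run.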

Other observations

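The 7 listed loci without a probe set of their own fall on 4 shared probe sets, whose signals cannot be given to 1 gene. The probe set shared by the neighbours AT4G37520 and AT4G37530 had control signals of 127.7 and 157.6 and 35S:AtRALF1 signals of 269.6 and 210.7, a log2 fold change of 0.69 (standard error 0.25, limma, adjusted p = 0.987), with both 35S:AtRALF1 arrays above both controls. That shared by the neighbours AT2G18140 and AT2G18150 had 8.20 and 15.2 on the control arrays against 35.8 and 28.8 on the 35S:AtRALF1 arrays, a log2 fold change of 0.81 (standard error 0.26, limma, adjusted p = 0.987), from control signals under the 40th percentile. The probe set of AT2G38380 and AT2G38390 had overlapping signals of 465.3 to 654.5. That of AT3G17070 with a gene not on the list had overlapping signals of 27.9 to 67.9. These probe sets were not counted among the 41 measured members.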
